A study of Mus musculus with 12 samples.

Results

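The genes described here are 10 genes of iron handling and heme breakdown in mouse macrophages and fibroblasts, out of 32544 genes in the deposited table. They were named by symbol, with earlier results of these data known. Tfrc brings iron into the cell, Slc11a1 and Slc11a2 move it out of phagosomes and endosomes, and Fth1 and Ftl1 store it. Slc40a1 exports iron, Cp oxidises it on the way out, Hmox1 releases it from heme, and Aco1 and Ireb2 encode the iron regulatory proteins. Each symbol matched 1 row, and all 10 genes were among the 14285 kept by a filter on low counts.

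RNA was sequenced in 12 libraries, 3 in each of 4 groups. Bone marrow-derived macrophages (BMDMs) were grown for 7 days with 10% FCS and 15% L929-conditioned medium, a source of macrophage growth factor, and RNA was taken 24 h after seeding. The WT cells came from LysMCre mice. The PHD2cko cells came from mice of the same background that also carry a floxed PHD2 gene, so the LysMCre transgene and the background were shared by both groups. LysMCre is driven by the lysozyme M gene and acts in macrophages and neutrophils, so cells of the culture that do not express it keep PHD2. The other 2 groups were NIH/3T3 mouse fibroblasts, an established line of Swiss mouse origin. By the paper's methods, they were first starved in medium with little serum. They were then kept for 72 h in medium with 2% FCS and 15% L929-conditioned medium that BMDMs labelled WT or PHD2cko had conditioned. PHD2cko against WT asked what the loss of PHD2, an oxygen- and iron-dependent enzyme that marks the hypoxia-inducible factor (HIF) for breakdown, does in macrophages and, through their medium, in fibroblasts. The sources used here do not say whether the sequenced cultures were kept in normal oxygen or in hypoxia.

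Most cells take up iron bound to transferrin through the transferrin receptor, free it in acid endosomes, and either use it, store it inside ferritin shells or export it through ferroportin. Macrophages also recycle iron from old red blood cells, whose heme they split with heme oxygenase. When iron is scarce, the iron regulatory proteins bind a short RNA hairpin, the iron-responsive element. Bound in a 5′ UTR it blocks translation of storage and export proteins, and bound in a 3′ UTR it protects the transferrin receptor mRNA from decay. Tfrc, Hmox1 and Slc40a1 are also known as genes that HIF or other stress-responsive factors can switch on.

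These elements are shown because the iron regulatory proteins act through them on storage, export and uptake. They were searched in GENCODE M21 transcripts (GRCm38) as a C, 5 bases, the loop CAGTG and any base, and 5 bases that pair with the first 5 (A with T, G with C or T). The loop is in capitals, and each run of 29 bases is written 5′ to 3′ on the strand of the gene, with T for U.
Fth1, 5′ UTR, chr19:9982732-9982760, + strand: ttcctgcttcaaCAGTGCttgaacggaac
Ftl1, 5′ UTR, chr7:45459779-45459807, - strand: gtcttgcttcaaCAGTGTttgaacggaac
Slc40a1, 5′ UTR, chr1:45925465-45925493, - strand: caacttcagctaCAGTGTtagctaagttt
Tfrc, 3′ UTR, chr16:32631219-32631247, + strand: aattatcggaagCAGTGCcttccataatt
Tfrc, 3′ UTR, chr16:32631598-32631626, + strand: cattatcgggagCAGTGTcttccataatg
Tfrc, 3′ UTR, chr16:32631663-32631691, + strand: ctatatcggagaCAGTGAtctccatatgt
Tfrc, 3′ UTR, chr16:32631710-32631738, + strand: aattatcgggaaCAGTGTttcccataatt
The rule matched a 5′ UTR in 28 of 20890 genes (0.134%) and a 3′ UTR in 127 of 20998 genes (0.605%). Fth1, Ftl1 and Slc40a1 held 1 element each ahead of the coding sequence, and Tfrc held 4 behind it. No match was found by these letters in the other 6 members, among them Slc11a2, which is known for a less regular element.

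Library totals ran from 15516465 to 25199770 estimated counts. Replicates of 1 group came from the labels as separate samples, but nothing in the sources used here says that they were separate animals or cultures, so p-values measure the spread between these libraries. Replicate 1 of the fibroblasts in WT medium stood apart from its group. Its chi-square over genes, divided by the degrees of freedom, was 25.1 and 27.0 against replicates 2 and 3, where all other pairs of 1 group gave 1.99 to 8.42. Egln1, the gene of PHD2, was at 55.4 ± 0.574 normalised counts per 1e6 counts (CPM) in WT BMDMs and at 69.6 ± 1.77 CPM in those labelled PHD2cko (SD, n = 3 each), higher rather than lower (log2 fold change 0.33, edgeR adjusted p = 0.00203). The table sums each gene over all its exons, so a deleted exon cannot be seen in it, and directions below are those of the labels. Apart from these libraries, the paper gives a PCR check of the PHD2 knockdown in PHD2cko BMDMs and reports raised HIF1α protein in them. All 23 macrophage markers were detected in BMDMs, with sums of 47191 to 48406 CPM in WT and 42116 to 43824 CPM in those labelled PHD2cko, without overlap, and the part of this difference in the results for BMDMs was not tested. The fibroblast markers there summed to at most 5.52 CPM with 1 of 10 at 0. The erythroid markers, which would mark red cell precursors rich in Tfrc and heme genes, summed to at most 0.767 CPM in BMDMs, and in fibroblasts to 1.81 to 2.66 CPM in WT medium and 3.08 to 4.27 CPM in PHD2cko medium, without overlap, with 2 of 9 at 0 in each cell type. Fibroblast libraries held macrophage markers at 33.8 to 40.0 CPM in WT medium and at 232 to 980 CPM in PHD2cko medium. Set against the sum in BMDMs of the same label, these levels are 0.0709 to 0.0839% in WT medium, and 2.29, 0.541 and 2.03% in replicates 1, 2 and 3 in PHD2cko medium.

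In BMDMs, the libraries labelled PHD2cko differed from WT in 2 of the 10 genes at an adjusted p under 0.05, Tfrc, which was higher, and Slc40a1, which was lower. Of all genes tested, 6.73% were called in this comparison. The libraries of the 2 labels did not overlap for 4 of the 10 genes, Tfrc, Slc40a1, Slc11a1 and Cp, where 31.9% of all genes tested did not overlap. The median log2 fold change of the 10 genes was -0.01, beside 0.00 for all genes tested. In fibroblasts, Slc11a1 and Slc11a2 were called, both higher in PHD2cko medium, while 15.7% of all genes tested were called. There, 3 of the 10 genes did not overlap, Slc11a1, Slc11a2 and Tfrc, beside 31.9% of all genes tested, and the median of the 10 was 0.07.

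**Figure D1:**
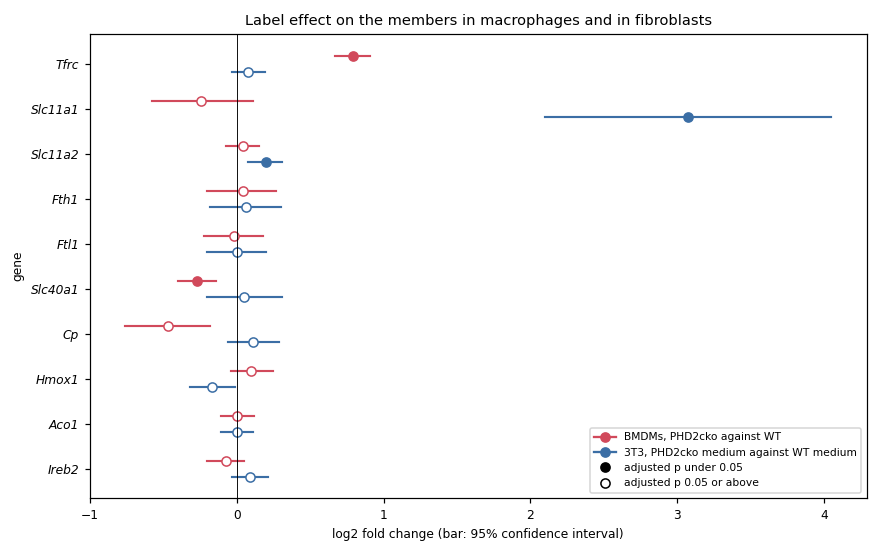
Log2 fold change of each of the 10 genes (horizontal axis) in BMDMs labelled PHD2cko against WT (red) and in 3T3 fibroblasts in PHD2cko against WT medium (blue), with 95% confidence intervals from the edgeR fit of 3 libraries per group; filled points have an adjusted p under 0.05. Tfrc (0.79) and Slc40a1 (-0.27) are filled in BMDMs, and Slc11a1 (3.07) and Slc11a2 (0.20) in fibroblasts.

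Tfrc (ENSMUSG00000022797.16, chr16:32608920-32632794) encodes the transferrin receptor, the main door for iron in most cells. It was at 29.3, 27.1 and 26.3 CPM in WT BMDMs and at 47.4, 46.4 and 48.8 CPM in BMDMs labelled PHD2cko. All 3 libraries labelled PHD2cko lay above all 3 WT libraries, by far more than the spread within either group. Mean levels of 27.6 ± 1.57 and 47.5 ± 1.20 CPM (mean ± SD of 3 libraries) corresponded to a log2 fold change of 0.79 (95% confidence interval 0.67 to 0.91, edgeR adjusted p = 2.8e-06), or 1.72-fold. The call held under all 7 other settings of the analysis and with each of the 6 libraries left out, which gave log2 fold changes of 0.75 to 0.83.

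In fibroblasts, Tfrc was at 56.7, 61.7 and 61.7 CPM in WT medium and at 62.5, 62.9 and 65.2 CPM in PHD2cko medium. The groups did not overlap, but replicate 2 in WT medium and replicate 1 in PHD2cko medium were less than 1 CPM apart. The log2 fold change was 0.08 (95% confidence interval -0.03 to 0.19, edgeR adjusted p = 0.312). The label effect in fibroblasts was smaller than in BMDMs by a log2 difference of -0.70 (edgeR interaction, adjusted p = 1.6e-04). Of all genes tested, 12.3% differed in this way at an adjusted p under 0.05, and 3 of the 10 members did, Tfrc, Slc11a1 and Cp.

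The stretch ahead of Tfrc is shown because ACGTG is 1 spelling of the core of the HIF binding motif and Tfrc was the member with the smallest adjusted p in BMDMs. The 250 bases before its GENCODE start, taken from RefSeq promoter windows on GRCm38.p6, lie at chr16:32608670-32608919 on the + strand. They are written 5′ to 3′ with ACGTG in capitals.
Tfrc, upstream: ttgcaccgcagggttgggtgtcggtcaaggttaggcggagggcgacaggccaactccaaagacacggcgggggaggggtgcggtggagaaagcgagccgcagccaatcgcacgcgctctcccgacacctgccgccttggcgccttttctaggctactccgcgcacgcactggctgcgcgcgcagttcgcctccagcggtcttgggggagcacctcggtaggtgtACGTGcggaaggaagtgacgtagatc
ACGTG begins 26 bases before the GENCODE start, and at -2 and -228 from the starts of the RefSeq windows. Searched on both strands, ACGTG was in 19.6% and GCGTG, the other common spelling, in 32.4% of all 32851 promoter windows of 300 bases. Windows were given for 7 of the 10 members, and ACGTG was found in those of 1 member, Tfrc, and GCGTG in those of 4, Tfrc among them. The Tfrc window that covers the printed stretch had 2 GCGTG matches, both on the other strand and left in lower case above. A match of 5 letters is a description of the sequence and not a bound site.

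Slc11a1 (ENSMUSG00000026177.11, chr1:74375195-74386062) encodes NRAMP1, a metal transporter of the phagosome of macrophages, in a form that does not work in C57BL/6 mice. In WT BMDMs it was at 447, 423 and 457 CPM, and in BMDMs labelled PHD2cko at 354, 367 and 405 CPM. All 3 libraries labelled PHD2cko were below the 3 WT libraries. The log2 fold change of -0.24 did not pass the threshold in the fit of all 12 libraries (95% confidence interval -0.58 to 0.11, edgeR adjusted p = 0.492). It did when the 6 BMDM libraries were fitted without the fibroblasts, at the same log2 fold change (adjusted p = 0.00101), a fit that called 20.6% of its genes.

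In fibroblasts, Slc11a1 had 5, 14 and 13 estimated counts in replicates 1, 2 and 3 in WT medium and 114, 28 and 96 in PHD2cko medium, or 0.254 to 0.687 and 1.62 to 5.86 CPM. Every library in PHD2cko medium was above every library in WT medium, and replicate 2 in PHD2cko medium was the lowest of its group. This gave a log2 fold change of 3.07 (95% confidence interval 2.10 to 4.05, edgeR adjusted p = 6.9e-04), and its difference from the effect in BMDMs was 3.31 (adjusted p = 7.0e-04).

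Relative to the level in BMDMs of the same label, Slc11a1 in PHD2cko medium stood at 1.92, 0.528 and 1.52% in replicates 1, 2 and 3, beside a summed macrophage marker level of 2.29, 0.541 and 2.03%. The order of the 3 libraries was the same for both. In WT medium Slc11a1 stood at 0.0687, 0.139 and 0.188%, beside 0.0709, 0.0802 and 0.0839% for the markers. With the BMDM profile subtracted from each fibroblast library in proportion to its marker level, 0, 0 and 0 Slc11a1 counts were left in PHD2cko medium and 0, 6 and 7 in WT medium. The log2 fold change after subtraction, -4.90 (adjusted p = 0.0555), rests on these counts floored at 0 and is no measure of size. The part that macrophage RNA had in the deposited Slc11a1 values was not tested further. In bulk libraries, fewer cells of a type and less RNA per cell cannot be told apart.

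**Figure D2:**
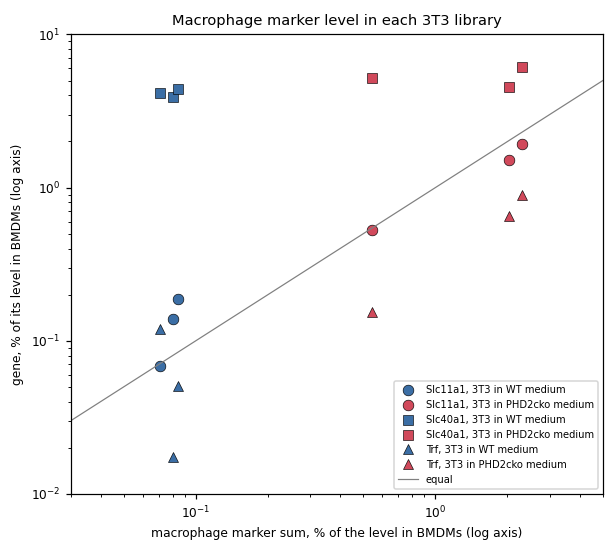
Each point is 1 fibroblast library; the horizontal axis gives its summed macrophage markers and the vertical axis a single gene, both as percent of the level in BMDMs of the same label, on log axes. In PHD2cko medium Slc11a1 (circles) lies just below the line of equal percent and Trf (triangles), described further on, lies further below it, while in WT medium Slc11a1 reaches 0.188% beside 0.0839% for the markers, and Slc40a1 (squares) lies above it at 3.92 to 6.11% in all 6 libraries.

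Slc11a2 (ENSMUSG00000023030.16, chr15:100387898-100425072) encodes DMT1, which carries iron out of endosomes. In BMDMs it was at 80.4, 77.2 and 79.9 CPM with the WT label and at 81.0, 76.6 and 86.0 CPM with the PHD2cko label. These ranges overlapped, and the log2 fold change was 0.04 (95% confidence interval -0.07 to 0.15). In fibroblasts it was at 38.5, 41.0 and 39.5 CPM in WT medium and at 45.1, 44.1 and 47.2 CPM in PHD2cko medium, without overlap.

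That difference was small, with a log2 fold change of 0.20 (95% confidence interval 0.08 to 0.31, edgeR adjusted p = 0.0249), or 1.15-fold. It passed with the macrophage profile subtracted, which accounted for at most 3.34% of its counts in any library. It did not pass without WT medium replicate 3 (adjusted p = 0.0553), PHD2cko medium replicate 1 (0.0660) or PHD2cko medium replicate 3 (0.111), nor in 2 other settings of the edgeR fit, no filter beyond 1 count (0.0534) and the 6 fibroblast libraries alone (0.0685). The effect in fibroblasts was not shown to differ from that in BMDMs (log2 difference 0.16, adjusted p = 0.195). The gene Gm5475 shares 402 exon bases with Slc11a2 on the opposite strand but had at most 3 counts in any library.

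Fth1 (ENSMUSG00000024661.7, chr19:9980598-9985098) and Ftl1 (ENSMUSG00000050708.16, chr7:45457944-45459884) encode the heavy and light chains of ferritin, the iron storage shell. Together they took 2.52 to 2.66% of all counts in the BMDM libraries and 0.238 to 0.311% in the fibroblast libraries.

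Fth1 was at 16741, 15910 and 16632 CPM in WT BMDMs and at 16448, 16560 and 17581 CPM in those labelled PHD2cko. Ftl1 was at 12234, 11914 and 12321 CPM in WT BMDMs and at 12033, 11963 and 12002 CPM in those labelled PHD2cko. The ranges overlapped for both chains. Their log2 fold changes were 0.04 (95% confidence interval -0.20 to 0.27) and -0.02 (-0.22 to 0.18), so changes beyond those bounds are outside the intervals and smaller ones are not.

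In fibroblasts, Fth1 was at 1486, 1137 and 1096 CPM in WT medium and at 1388, 1133 and 1357 CPM in PHD2cko medium. Ftl1 was at 1394, 1134 and 1085 CPM in WT medium and at 1300, 1072 and 1244 CPM in PHD2cko medium. Replicate 1 in WT medium, the library that stood apart, was the highest for both chains, and the groups overlapped. The log2 fold changes were 0.06 for Fth1 and 0.00 for Ftl1 (edgeR adjusted p = 0.764 and 1.00), and without that library they were 0.23 and 0.14 (adjusted p = 0.0544 and 0.201).

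Ferritin mRNA was abundant in macrophages, so the macrophage markers in the fibroblast libraries were set beside it. At the marker levels given above, the BMDM profile would account for 22.5, 6.58 and 20.6% of the Fth1 counts in replicates 1, 2 and 3 in PHD2cko medium, and for 17.1, 4.95 and 16.0% of the Ftl1 counts. In WT medium it would account for at most 1.04% of either. With it subtracted, the log2 fold changes became -0.17 for Fth1 and -0.16 for Ftl1 (adjusted p = 0.270 and 0.211). The part that macrophage RNA had in the deposited values was not tested further.

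Both ferritin genes have similar copies in the mouse genome, among which reads could be split. The table held 1 copy of Fth1 and 6 of Ftl1 with at least 90% identity, and these took at most 43 and 126 counts in a library, no more than 0.0222 and 0.132% of the counts of the gene itself. Summing the copies with the gene left every log2 fold change as it was to 2 decimals. Per kb of transcript, Fth1 was 1.39 to 1.53 times Ftl1 in BMDMs and 1.05 to 1.14 times in fibroblasts.

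Slc40a1 (ENSMUSG00000025993.10, chr1:45908068-45926523) encodes ferroportin, the iron exporter. It was at 119, 118 and 113 CPM in WT BMDMs and at 92.3, 94.5 and 103 CPM in BMDMs labelled PHD2cko. All 3 libraries labelled PHD2cko were below the 3 WT libraries. Mean levels of 117 ± 3.52 and 96.5 ± 5.53 CPM (mean ± SD of 3 libraries) corresponded to a log2 fold change of -0.27 (95% confidence interval -0.40 to -0.14, edgeR adjusted p = 0.0148), or 0.828-fold.

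All 7 other settings called it too, with adjusted p from 2.2e-04 to 0.0341. Leaving out a single library took the adjusted p past the threshold in 4 of 6 cases, which were WT replicate 1 (0.0880), WT replicate 2 (0.0758), PHD2cko replicate 1 (0.0967) and PHD2cko replicate 2 (0.0808). The log2 fold change itself stayed between -0.32 and -0.24. The same omissions of 1 BMDM library called 3.63 to 4.57% of all genes in place of 6.73%. Slc40a1 moved opposite to Tfrc in these libraries.

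In fibroblasts Slc40a1 was at 4.02, 3.77 and 4.28 CPM in WT medium and at 4.78, 4.11 and 3.58 CPM in PHD2cko medium. The groups overlapped (log2 fold change 0.05, adjusted p = 0.817). Macrophage RNA at the marker level would account for 37.5, 10.4 and 44.7% of its counts in PHD2cko medium, and with it subtracted the log2 fold change was -0.43 (adjusted p = 0.110). In WT medium it would account for no more than 2.05%. The difference between the label effects was 0.33 (adjusted p = 0.139).

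Cp (ENSMUSG00000003617.16, chr3:19957054-20009145) encodes ceruloplasmin, a copper enzyme that oxidises iron as it leaves the cell. In BMDMs it was low, with 8.70, 7.33 and 6.81 CPM with the WT label and 4.92, 5.74 and 5.77 CPM with the PHD2cko label. The libraries labelled PHD2cko were all below the WT libraries. Its log2 fold change of -0.47 missed the threshold (95% confidence interval -0.76 to -0.18, edgeR adjusted p = 0.0570). It passed with the DESeq2 Wald test (0.0198), with genes kept only at 10 counts or more in all libraries (0.0414) and with the 6 BMDM libraries alone (0.0188).

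In fibroblasts, Cp was at 47.7, 50.9 and 45.3 CPM in WT medium and at 50.7, 47.2 and 57.5 CPM in PHD2cko medium. The groups overlapped (log2 fold change 0.11, adjusted p = 0.401). The difference between the label effects was 0.58 (adjusted p = 0.0289), but that call was lost with limma-voom (0.0835), with the replicate block (0.0554) and in 5 of 12 omissions of 1 library, those of WT and PHD2cko BMDM replicates 1 and 2 and of PHD2cko medium replicate 3 (0.0509 to 0.0905). Cp shares 108 exon bases with Hps3 on the opposite strand, a gene with 1047 to 1368 counts in the BMDM libraries, where Cp had 81 to 134.

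Hmox1 (ENSMUSG00000005413.8, chr8:75093621-75100589) encodes heme oxygenase, which splits heme and frees its iron. It lies on the chromosome of Egln1, 49.8 Mb away. In BMDMs it was at 206, 189 and 196 CPM with the WT label and at 209, 200 and 224 CPM with the PHD2cko label. These ranges overlapped, and the log2 fold change was 0.10 (95% confidence interval -0.04 to 0.25, edgeR adjusted p = 0.472).

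In fibroblasts Hmox1 was at 53.5, 48.6 and 46.2 CPM in WT medium and at 47.2, 40.6 and 44.3 CPM in PHD2cko medium. The ranges overlapped in replicate 3 of WT medium and replicate 1 of PHD2cko medium. The log2 fold change was -0.17 (95% confidence interval -0.32 to -0.01, edgeR adjusted p = 0.150). With macrophage RNA at the marker level subtracted, which would account for at most 8.31% of its counts, it was -0.22 (adjusted p = 0.0489), and the difference from the effect in BMDMs went from -0.27 (adjusted p = 0.103) to -0.33 (adjusted p = 0.0417).

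Aco1 (ENSMUSG00000028405.9, chr4:40143081-40198338) and Ireb2 (ENSMUSG00000032293.8, chr9:54863789-54912530) encode the iron regulatory proteins, which sense iron as proteins. Aco1 was at 86.2 to 89.3 CPM in WT BMDMs and at 81.6 to 91.4 CPM in BMDMs labelled PHD2cko. In fibroblasts it ran from 59.5 to 64.1 CPM in WT medium and from 60.3 to 64.6 CPM in PHD2cko medium. Both comparisons overlapped and gave log2 fold changes of 0.00, with 95% confidence intervals of -0.11 to 0.12 and -0.11 to 0.11.

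Ireb2 was at 108 to 116 CPM in WT BMDMs and at 102 to 109 CPM in BMDMs labelled PHD2cko. In fibroblasts it was at 99.9 to 116 CPM in WT medium and at 114 to 118 CPM in PHD2cko medium. The groups overlapped in both cell types. The log2 fold changes were -0.07 (95% confidence interval -0.20 to 0.05) and 0.09 (-0.03 to 0.21), with edgeR adjusted p = 0.588 and 0.330.

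**Figure D3:**
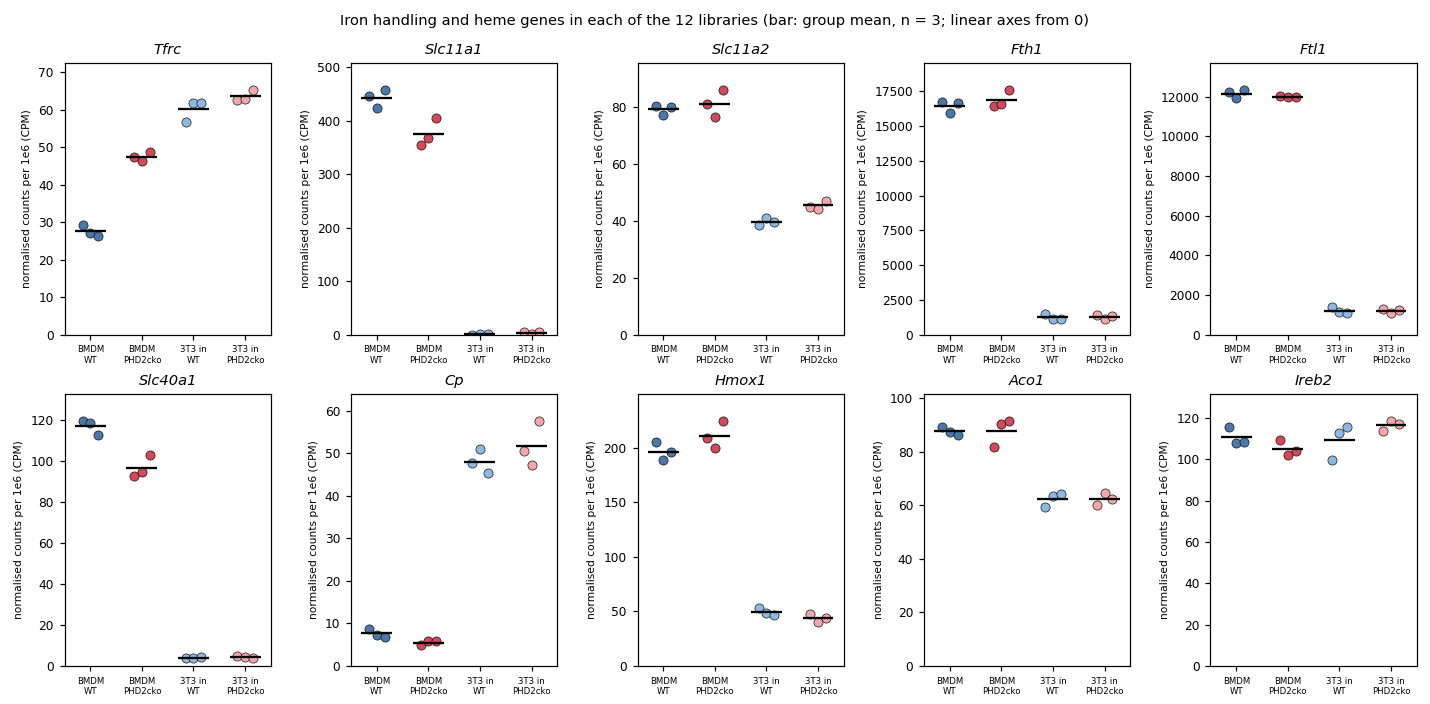
Normalised counts per 1e6 counts (CPM) of the 10 genes in the 12 libraries, with 1 panel per gene on its own linear axis from 0; points are libraries in the order of their replicate numbers, bars are group means (n = 3), and the 2 right-hand groups are fibroblasts in medium from WT or PHD2cko BMDMs. Tfrc is at 26.3 to 29.3 CPM in WT BMDMs and 46.4 to 48.8 CPM in those labelled PHD2cko, and the ferritin genes differ between cell types far more than between labels.

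WT BMDMs and fibroblasts in WT medium differed in 9 of the 10 genes, where 85.3% of all genes tested were called. Cell type, medium, serum, starvation and time in culture differ together in this comparison and cannot be told apart. Slc11a1 (log2 fold change 9.82), Slc40a1 (4.86), Fth1 (3.73), Ftl1 (3.34), Hmox1 (1.99), Slc11a2 (1.00) and Aco1 (0.49) were higher in BMDMs. Tfrc (-1.12) and Cp (-2.66) were lower there, each with an edgeR adjusted p of 1.1e-06 or less. Ireb2 had a log2 fold change of 0.01 (95% confidence interval -0.11 to 0.14).

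Levels were set between genes only per kb of the principal transcript. In WT BMDMs, Fth1 was at 17683 ± 486 and Ftl1 at 12558 ± 222 CPM per kb (SD, n = 3), followed by Slc11a1 (191), Hmox1 (125), Slc40a1 (34.6), Slc11a2 (26.2), Aco1 (22.9), Ireb2 (19.2), Tfrc (5.64) and Cp (1.89). No neighbours in this order overlapped between libraries. With the PHD2cko label the order was the same, but Slc40a1 (28.6) and Slc11a2 (26.8) overlapped.

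In fibroblasts in WT medium the order was Fth1 (1335 CPM per kb), Ftl1 (1244), Hmox1 (31.5), Ireb2 (19.0), Aco1 (16.3), Slc11a2 (13.1), Tfrc (12.3), Cp (11.9), Slc40a1 (1.19) and Slc11a1 (0.209). Fth1 and Ftl1 overlapped there, as did Tfrc and Cp. In PHD2cko medium the last 2 places changed, with Slc11a1 at 1.75 and Slc40a1 at 1.23 CPM per kb, and their ranges overlapped. Ferritin and ferroportin mRNA were thus higher in WT BMDMs than in fibroblasts in WT medium, while Tfrc and Cp mRNA were lower. Fth1 and Ftl1 stood above all other members in both cell types.

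**Figure D4:**
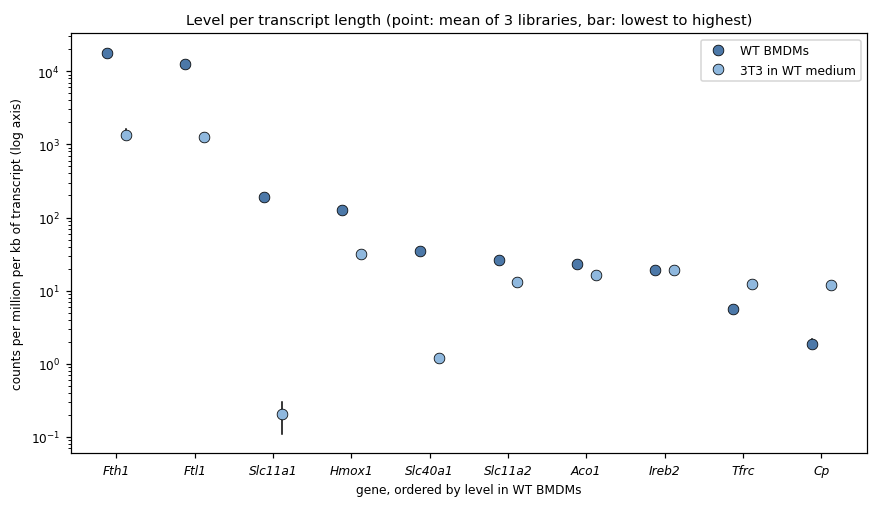
CPM per kb of transcript (vertical log axis) of the 10 genes in WT BMDMs (dark) and in 3T3 fibroblasts in WT medium (light), as the mean of 3 libraries with a bar from the lowest to the highest. Fth1 and Ftl1 stand above all other members in both cell types, Tfrc and Cp are higher in fibroblasts, and Ireb2 is level (19.2 and 19.0).

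Of the genes called in either label comparison, Tfrc was most like Ankrd37 (Pearson r = 0.991), Hpgd (0.987) and Pfkl (0.982). Likeness was taken over the log2 CPM of the 12 libraries, centred within each cell type, among 12847 genes at a mean of at least 1 CPM, and is a description over points that share their groups. Those 3 genes had log2 fold changes of 4.01, 6.08 and 1.10 in BMDMs and of 0.39, 1.98 and 0.09 in fibroblasts. Hpgd encodes an enzyme that inactivates prostaglandins and Pfkl the liver form of phosphofructokinase.

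Slc11a1 was most like Ms4a6d (r = 0.995), Nrros (0.993) and Adap1 (0.993), whose log2 fold changes in fibroblasts were 3.45, 3.28 and 4.83. For Slc40a1 the nearest were H2-DMa (0.919), which encodes a chain of the molecule that loads peptides onto MHC class II, Nfxl1 (0.880) and Mknk1 (0.877). For Slc11a2 they were Ptbp1 (0.955), Fam134c (0.923) and Dnmt1 (0.922), whose log2 fold changes in fibroblasts were 0.13, 0.18 and 0.30.

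Beyond the 10 members, 78 further genes of iron and heme metabolism in 8 lists were followed, of which 66 passed the filter. In BMDMs labelled PHD2cko, 1 of the 66 was higher and 3 were lower. These 4 genes are 6.06% of those tested, near the 6.73% of all genes called, and the median log2 fold change was -0.03 beside 0.00 for all genes. Among the 66, Steap1 and Tmprss6 had 0 counts in every BMDM library and could not be called there. The means of Steap2, Slc22a17, Flvcr2 and Hpx in BMDMs stayed under 1 CPM. The share of all genes rests on the same filter over the 4 groups. Without WT replicate 2, PHD2cko replicate 1 or PHD2cko replicate 3, 2 of the further genes were called, while the share of all genes called was 4.11, 3.68 and 4.57%. With the 6 BMDM libraries alone, 15 of the further genes were called, while that fit called 20.6% of all its genes. In the fit of all 12 libraries, no gene was called in the lists of heme synthesis (8 tested), heme breakdown (3) or iron storage and ferritinophagy (3). Hmox2, Blvra and Blvrb, the other enzymes of heme breakdown, had log2 fold changes of -0.00, 0.04 and 0.06.

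Steap3, the reductase that makes endosomal iron fit for DMT1, had 813, 821 and 935 counts in WT BMDMs and 1145, 901 and 1242 in those labelled PHD2cko, which were higher in every library after normalisation. Its mean rose from 53.1 ± 3.60 to 65.4 ± 3.98 CPM (SD, n = 3 each, log2 fold change 0.30, edgeR adjusted p = 0.00675). It was the only gene called of the 8 tested in the list of iron uptake and reduction. Of these 8, Steap1 had 0 counts in every BMDM library and could not be called there. The means of Steap2 and Slc22a17 in BMDMs were at most 0.370 and 0.817 CPM. These genes were kept by the filter through the fibroblasts.

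Nqo1, a quinone reductase and a common readout of NRF2, fell from 10.5 ± 1.68 to 5.76 ± 0.578 CPM (log2 fold change -0.86, edgeR adjusted p = 8.0e-04). It was the only one of 13 genes of the NRF2 and BACH1 list that was called. The other 12 ran from -0.26 for Slc7a11 (adjusted p = 0.123) to 0.14 for Gpx4 (adjusted p = 0.432). The median of the 13 was -0.10 beside 0.00 for all genes tested.

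Cd163, the scavenger receptor for hemoglobin bound to haptoglobin, fell from 16.3 ± 0.759 to 10.8 ± 0.927 CPM in BMDMs labelled PHD2cko (log2 fold change -0.60, edgeR adjusted p = 0.0243). Neo1, neogenin, which takes part in the control of hepcidin, fell from 6.92 ± 0.372 to 4.40 ± 0.424 CPM (-0.66, adjusted p = 0.0206). Neither call was firm to the loss of a library, since Cd163 missed the threshold in all 6 omissions (0.0540 to 0.119) and Neo1 in those of WT replicates 2 and 3 and PHD2cko replicates 1 and 3 (0.0555 to 0.0845). Neo1 also missed it with limma-voom (0.116).

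In fibroblasts, 4 of the 66 genes were higher and 3 lower in PHD2cko medium, 10.6% of those tested beside 15.7% of all genes. The median log2 fold change was -0.02. In place of 7 genes, 4 were called without WT medium replicate 3, 2 without PHD2cko medium replicate 1 and 1 without PHD2cko medium replicate 3, while the share of all genes called was 14.4, 9.09 and 8.70%. Trf, which encodes transferrin, had 5, 1 and 2 counts in WT medium and 39, 6 and 30 in PHD2cko medium (log2 fold change 3.36, edgeR adjusted p = 0.00327). It was kept by the filter through the BMDMs, where its mean was 253 CPM with the WT label and 275 CPM with the PHD2cko label. Cd163, whose mean stayed under 1 CPM and which is named here after its values were seen, had 3, 4 and 2 counts and 12, 2 and 11 (1.63, adjusted p = 0.0443). Cd163 too was kept through the BMDMs, and neither gene was kept by the filter in the 6 fibroblast libraries alone. Both are among the 4 genes that were higher.

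Both Trf and Cd163 were low in replicate 2 of PHD2cko medium, the library with the fewest macrophage markers of its group, as Slc11a1 was. Relative to BMDMs, Trf stood at 0.900, 0.155 and 0.648% in the 3 libraries in PHD2cko medium, beside 2.29, 0.541 and 2.03% for the markers. Cd163 stood above the markers, at 7.05, 1.31 and 6.05% in these libraries and at 0.783 to 1.12% in WT medium. With the macrophage profile subtracted, Trf was at a log2 fold change of -2.44 (adjusted p = 0.305), a value that rests on counts floored at 0, and Cd163 was still at 1.03 (adjusted p = 0.221). Cd163 was also not called with limma-voom (0.148) or the replicate block (0.0689), nor without any 1 of the fibroblast libraries other than replicate 2 in PHD2cko medium (0.0602 to 0.184).

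Nqo1 rose in PHD2cko medium from 13.2 ± 0.816 to 17.3 ± 0.350 CPM (log2 fold change 0.39, edgeR adjusted p = 0.0186) and Slc7a11, which imports cystine for glutathione, from 15.9 ± 1.81 to 19.3 ± 0.331 CPM (0.28, adjusted p = 0.0335). Gclc, which encodes part of the enzyme that starts glutathione synthesis, was at 0.19 (adjusted p = 0.0528). Nqo1 therefore changed in opposite directions in the 2 cell types, by a log2 difference of 1.26 (edgeR interaction, adjusted p = 3.5e-04).

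The 3 genes that were lower were Hpx, Cpox and Nfs1. Cpox, an enzyme of heme synthesis, fell from 30.6 ± 0.590 to 25.8 ± 1.34 CPM (log2 fold change -0.24, edgeR adjusted p = 0.0157). Nfs1, the cysteine desulphurase of iron-sulphur cluster assembly, fell from 21.3 ± 1.47 to 17.7 ± 1.31 CPM (-0.27, adjusted p = 0.0267). Hpx, the heme-binding hemopexin, had 17, 23 and 26 counts in WT medium and 10, 10 and 9 in PHD2cko medium (-0.99, adjusted p = 0.0444), and its call was lost in every omission of 1 library (0.0512 to 0.160). The Hpx call was also lost with no filter beyond 1 count (0.115), the replicate block (0.0759), the 6 fibroblast libraries alone (0.116) and the macrophage share subtracted (0.0574). Nfs1 missed the threshold without WT medium replicates 1 or 3 or PHD2cko medium replicates 1 or 3 (0.0588 to 0.113), and Slc7a11 without WT medium replicate 2 or any 1 replicate in PHD2cko medium (0.0605 to 0.109). Nqo1 missed it without WT medium replicates 2 or 3 or PHD2cko medium replicates 1 or 3 (0.0531 to 0.0614), and Cpox without PHD2cko medium replicates 2 or 3 (0.0565 and 0.0627). Cpox, Nfs1 and Slc7a11 were also short of the threshold with the 6 fibroblast libraries alone (0.0644, 0.111 and 0.105).

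**Figure D5:**
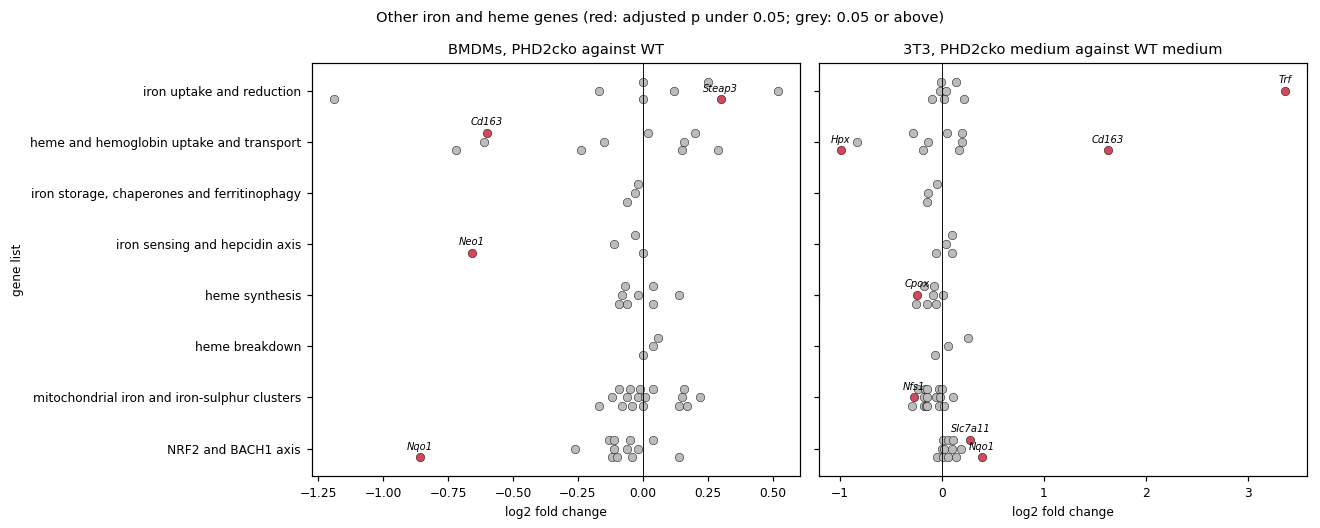
Log2 fold change (horizontal axis) of the 66 further iron and heme genes in BMDMs labelled PHD2cko against WT (left) and in fibroblasts in PHD2cko against WT medium (right), arranged by list; red points have an adjusted p under 0.05 and carry their names. There are 4 red points on the left and 7 on the right, and the horizontal scales differ.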

How the data were processed

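The deposited values are estimated counts, summed to genes by the authors, from single reads of polyA RNA run through Kallisto on GRCm38. They are whole numbers without normalisation or filter, and how the estimates became whole numbers is not given in the sources used here. All 12 columns were mapped to samples by their names, and 0 were left over. The 10 members, the further gene lists and the markers were chosen with earlier results of these data known.

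Genes were kept by filterByExpr with 4 groups. All 12 libraries were fitted together in edgeR 4.0.16 (R 4.3.3) with TMM and the quasi-likelihood test, two-sided, adjusted by Benjamini-Hochberg over the 14285 genes kept, with a threshold of 0.05. CPM were counts per 1e6 of the effective library size, and marker sums are over the total count. Standard errors follow from the F statistic. The steps were checked on simulated counts.

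Genes named are the 10 members, Egln1, up to 6 further iron and heme genes per comparison and direction past the threshold at 1 CPM or more in either group, and the 3 genes most like each called member. Outside this rule, Gm5475 and Hps3 were named for exons shared with a member, and Hmox2, Blvra, Blvrb, Gpx4, Gclc, Slc7a11 in BMDMs and Cd163 in fibroblasts were named after their values were seen. Steap1, Steap2, Slc22a17, Tmprss6, Flvcr2 and Hpx in BMDMs were named for their low counts there. Of the lists, 78 of 78 symbols were in the table, 3 by an older or newer name. Flvcr1, Flvcr2 and Hjv are listed there as Mfsd7b, Mfsd7c and Hfe2. A further gene of these lists and a detail of the shared mouse background are not reported here.

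The macrophage share was the sum of 23 markers over that sum in BMDMs of the matching label, and was subtracted as share times mean BMDM profile, rounded, with a floor of 0. Among the other marker lists, neutrophil markers summed to 0.384 to 0.698 CPM in WT BMDMs, 0.707 to 0.778 CPM in those labelled PHD2cko and at most 0.216 CPM in fibroblasts, dendritic cell markers to at most 4.55 CPM, and B cell and plasma cell markers to 196 to 202 CPM in WT BMDMs, 160 to 174 CPM in those labelled PHD2cko, 4.25 to 5.88 CPM in WT medium and 13.0 to 14.8 CPM in PHD2cko medium. Fibroblast markers summed to 20658 to 22807 CPM in WT medium and 27396 to 28309 CPM in PHD2cko medium. With 3 libraries per group, exact permutation cannot go below p = 0.1.

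The alternatives were the size factors of DESeq2 in edgeR, a Wald test with DESeq2 1.42.0, voom of limma 3.58.1, genes kept only at 10 counts or more in all libraries, all genes with 1 count or more in total, the replicate number as a block, the 6 libraries of 1 cell type alone, each library left out, and the macrophage share subtracted. Coordinates are from GENCODE M21 on GRCm38 and promoter windows from RefSeq on GRCm38.p6.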

Additional observations from a re-analysis of the deposited data

Results flagged for a closer look

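The results given here are those in which the effect of the PHD2cko label in fibroblasts differed from that in BMDMs by the interaction term of the edgeR fit at an adjusted p under 0.05. Values are log2 differences, the fibroblast effect minus the BMDM effect.

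Tfrc differed by -0.70 (adjusted p = 1.6e-04), with 3 of 3 BMDM libraries labelled PHD2cko above the WT libraries and an effect in fibroblasts of 0.08. Slc11a1 differed by 3.31 (adjusted p = 7.0e-04), and its value in fibroblasts moved with the macrophage markers. Cp differed by 0.58 (adjusted p = 0.0289), with a BMDM effect of -0.47 that itself missed the threshold, and its difference was not called with the replicate block (adjusted p = 0.0554).

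Among the further iron and heme genes, Nqo1 differed by 1.26, being lower in BMDMs and higher in fibroblasts. Steap3 differed by -0.31, Neo1 by 0.75 and Slc7a11 by 0.55. Trf differed by 3.24 and Cd163 by 2.22, and both rest in fibroblasts on at most 39 and 12 counts in a library. The filter kept these 2 genes only through the BMDMs.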

How the results depend on the processing

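With the 6 libraries of 1 cell type alone, 4 members were called in BMDMs and 1 in fibroblasts in place of 2 and 2, and 15 and 1 of the further iron and heme genes in place of 4 and 7. Over all genes these fits called 20.6 and 6.82%, in place of 6.73 and 15.7%. Keeping genes only at 10 counts or more in all libraries, which removes Slc11a1, and no filter beyond 1 count each left 1 member called in fibroblasts, with 15.2 and 8.57% of all genes called there. Leaving out 1 library gave 1 to 2 members in BMDMs and 1 to 2 in fibroblasts, and 2 to 3 and 1 to 10 further genes, with 3.63 to 4.57 and 8.70 to 19.0% of all genes called. The 10 further genes and the 19.0% came without WT medium replicate 1.

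With the macrophage share subtracted, the fibroblast effects became -4.90 for Slc11a1, -2.44 for Trf, -0.43 for Slc40a1 and -0.17 for Fth1, and the differences from BMDMs became -4.66 for Slc11a1, -0.20 for Fth1, -0.14 for Ftl1 and -0.15 for Slc40a1, none called. That of Hmox1 became a call, at -0.33 (adjusted p = 0.0417). The values of Slc11a1 and Trf rest on counts floored at 0 and are no measure of size. Other reversals, all of uncalled values, came with a library left out. Slc11a2 in BMDMs ran from -0.01 to 0.08, Fth1 in fibroblasts from -0.02 to 0.23, Slc40a1 in fibroblasts from -0.06 to 0.16, the difference between cell types from -0.06 to 0.20 for Fth1 and from -0.05 to 0.16 for Ftl1, and Ireb2 in WT BMDMs against fibroblasts from -0.06 to 0.05. Ireb2 was also at -0.05 with 10 counts or more in all libraries and at -0.01 without a filter.

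Libraries with the same replicate number did not deviate together (correlations of -0.0222 to 0.0199 in BMDMs and -0.0497 to 0.0242 in fibroblasts, with 1 and 2 of 6 libraries nearest to their own number). No pairing by number was seen within a cell type, but 3 libraries per group cannot exclude one. BMDM libraries were not compared with fibroblast libraries in this way. With the replicate block, 2 members were called in BMDMs, 2 in fibroblasts, 9 between cell types and 2 in the interaction in place of 3, where Cp was lost (adjusted p = 0.0554). The block called 4 and 5 further genes, and 815 and 1953 of all genes in place of 961 and 2240.

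Slc11a1, Trf, Cd163 and Hpx in fibroblasts rest on few counts per library, and the table shows neither exons nor protein.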
